A study of Homo sapiens with 9 samples.

Results

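Gene expression was compared between HCC827 cells that stably expressed either G1 or G7, a pair of short hairpin RNAs that target CBX5. HCC827 is an established human lung adenocarcinoma line with an activating EGFR mutation. The comparison used the 3 libraries of each hairpin, 6 of the 9 libraries of the series, and set G1 directly against G7. The other 3 libraries came from cells with a non-silencing control hairpin, NS, and were used only where they are named. All cells were grown in DMEM with serum and without an inhibitor named in the labels, and polyadenylated RNA was sequenced. The design text calls the 3 libraries of a group biological replicates. Nothing in the labels says that they came from separate transductions, so the p-values measure the spread between these libraries. The labels give neither the sequences of the hairpins nor the sites in CBX5 at which they bind. The hairpin and the depth of CBX5 loss differ together here, and their parts in a difference cannot be told apart.

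CBX5 encodes HP1 alpha, one of 3 heterochromatin protein 1 paralogs. These proteins bind histone H3 methylated at lysine 9 through a chromodomain and recruit partners through a chromoshadow domain, and they are known for compacting silent chromatin at centromeres and repeats. CBX1 encodes HP1 beta and CBX3 encodes HP1 gamma.

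CBX5 (GRCh38 chromosome 12, 54230940 to 54280133) had 139, 139 and 140.0 CPM with G1 and 201, 200.5 and 199 CPM with G7. CPM are counts per 1000000 of the library total, scaled by TMM over the 6 libraries. The G1 libraries lay within 2 CPM of each other and all below the G7 libraries. The log2 difference, G1 minus G7 here and throughout, was -0.52 ± 0.036 (SE), at an edgeR adjusted p of 2.59e-07. CBX1, the HP1 beta gene, had 112, 117 and 114 CPM with G1 and 91.9, 96.1 and 90.97 CPM with G7. CBX3, the HP1 gamma gene, had 257, 288 and 257 CPM with G1 and 209, 218 and 191 CPM with G7. Both paralogs were thus higher with the hairpin that left less CBX5 RNA, by 0.30 and 0.38, with no overlap between libraries.

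Of 13013 genes with enough counts to be tested, 3033 (23.3%) were called higher with G1 and 2831 (21.8%) lower. A gene was called at an adjusted p under 0.05 by the quasi-likelihood test of edgeR, with p-values adjusted by Benjamini-Hochberg over all genes tested. Upper quartile scaling gave 2396 higher and 3568 lower. That scaling moved the median of all genes by -0.05. Most called differences were small, with a median size of 0.34 on the log2 scale. Past a 1.5-fold difference by the glmTreat test, 126 genes (0.968%) were higher and 171 (1.31%) lower. Counts of gene lists below are read against 23.3% higher and 21.8% lower. These shares varied with abundance. In the lowest tertile of mean CPM 6.87% of genes were higher and 23% lower. The middle tertile had 23.6% and 22.8%, and the highest had 39.5% and 19.5%. The lists were not matched for abundance, and its part in their counts was not tested.

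Totals ran from 15781878 to 22372353 counts in the 6 libraries. The hairpins parted along the first principal component (64.3% of variance). G7 replicate 3 stood apart within its group. It differed from the other two by 24.7 and 19.5 in chi-square per degree of freedom, against 1.51 between those, and its share of mitochondrially encoded counts was the highest of the 6 at 19.8%. Without it, 3241 genes were higher and 2924 lower, and 130 and 181 past 1.5-fold. Of the epithelial markers CDH1, EPCAM, KRT8 and others, 8 of 8 were tested, 6 of them higher and 2 lower, MUC1 (-0.68) and ELF3 (-0.54). Of 32 markers of fibroblasts, endothelial, blood and neuroendocrine cells, 6 had enough counts. Of these, CD14 (-1.20) and ITGAM (-1.42) of the blood list and PECAM1 (-0.40) of the endothelial list were lower and CDH5 (0.24) was higher (not called without G1 replicate 1 or 3 or G7 replicate 1 or 2), while COL1A1 (0.13) and SYP (-0.62) were not called. The leukocyte gene PTPRC had 50 counts in the 6 libraries together.

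**Figure D1:**
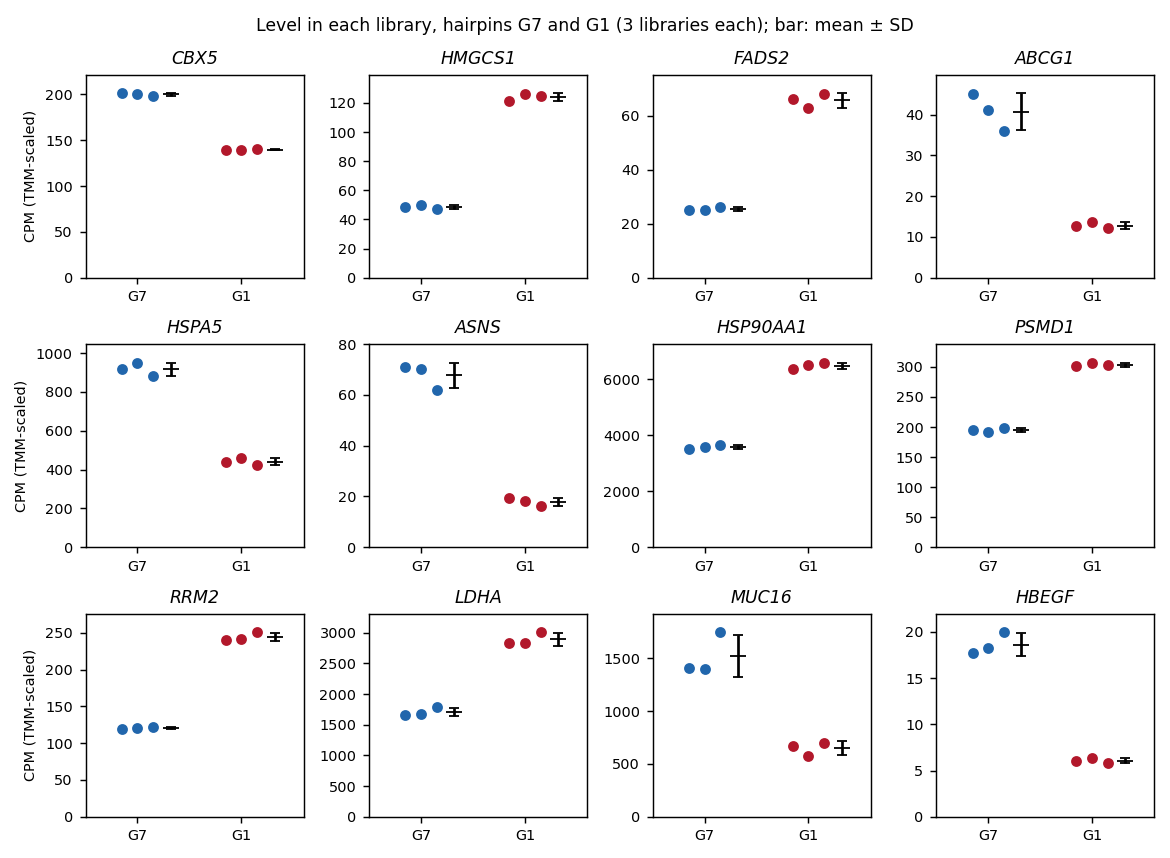
Level of 12 genes in each library, in TMM-scaled CPM on linear axes from 0; each point is a library, and the bar beside each group is its mean ± SD (n = 3). In every panel the G1 libraries lie wholly above or wholly below the G7 libraries.

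Cholesterol synthesis is controlled by SREBP2, a transcription factor held in the endoplasmic reticulum by INSIG proteins while sterol is plentiful and released when it is scarce. SREBP1 drives fatty acid synthesis, and the LXR receptors, which sense oxysterols, drive sterol export. Of 19 tested genes of cholesterol synthesis, 16 were higher with G1 and 2 lower, with a median log2 difference of 0.74 against -0.01 for all genes tested. HMGCS1, which makes HMG-CoA, had 121, 126 and 125 CPM with G1 and 48.6, 49.99 and 47.4 CPM with G7. The groups were far apart relative to their spread. The difference was 1.35 ± 0.043 (SE; edgeR adjusted p = 1.11e-09). MSMO1 and LSS, late enzymes of the pathway, differed by 1.27 and 1.25, and SQLE, the epoxidase before them, by 1.56. The members lower with G1 were FAXDC2 (-0.95), a hydroxylase-like protein, and TM7SF2 (-0.31), a sterol reductase. CYP51A1, IDI1 and ERG28 did not have enough counts to be tested.

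Of 16 genes of sterol uptake and SREBP control, 8 were higher and 3 lower. INSIG1, which holds the SREBP proteins in the endoplasmic reticulum, had 84.2, 87.5 and 80.9 CPM with G1 and 25.9, 25.1 and 24.7 CPM with G7. Every G1 library was above every G7 library, a difference of 1.74. SREBF2 itself differed by 0.23 (edgeR adjusted p = 0.000421), while SREBF1 had -0.11 and was not called (0.0871). Upper quartile scaling, the stricter CPM filter or leaving out G7 replicate 3 called SREBF1 lower, at -0.16, -0.12 and -0.13. The cholesterol importer gene NPC1L1 (-1.06) was lower with G1 at about 1 CPM or less. The other two lower calls, INSIG2 (-0.19) and MYLIP (-0.19), each ended without G1 replicate 1 or 3 or G7 replicate 1 or 2, which left 1 lower, and that of INSIG2 also without G1 replicate 2, whereas upper quartile scaling called 6 lower.

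Export genes differed the other way. ABCG1, a sterol exporter and LXR target, had 12.6, 13.7 and 12.1 CPM with G1 and 45.1, 41.1 and 35.98 CPM with G7. No G1 library reached 14 CPM and no G7 library was under 36 CPM, a difference of -1.67 ± 0.09 (SE; edgeR adjusted p = 4.22e-08). ABCA1, the other main exporter, had 101, 104 and 107 CPM with G1 and 162, 164 and 155 CPM with G7, a difference of -0.62. Of the 8 tested genes of the LXR list, 4 were lower and 2 higher, among the latter SMPDL3A (0.37). SMPDL3A was no longer called without any 1 of G1 replicates 1 to 3 and G7 replicates 1 and 2 (0.31 to 0.41), and 2 remained lower, ABCG1 and ABCA1, without G1 replicate 1 or 3 or G7 replicate 1 or 2.

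In fatty acid synthesis and desaturation, 12 of 18 tested genes were higher and 1 lower. FADS2, the delta-6 desaturase, had 66.2, 62.7 and 68.1 CPM with G1 and 24.9, 25.1 and 26.1 CPM with G7, and its difference of 1.37 was the largest of the list. SCD, the delta-9 desaturase and among the most abundant RNAs of the cells, had 3034, 3068 and 3097 CPM with G1 and 1658, 1683 and 1667 CPM with G7. FASN, fatty acid synthase, had 1172, 1086 and 1043 CPM with G1 and 708, 649.9 and 626 CPM with G7. Among the other enzymes, ELOVL6 (0.90), ME1 (0.69) and ACLY (0.66) were higher, and ACSS2 (-0.27), which makes acetyl-CoA from acetate, was lower. On the storage side, 2 of 12 genes were higher and 4 lower. The phosphatidate phosphatase gene LPIN1 (1.10) was higher, and the lipid droplet coats PLIN5 (-1.21) and PLIN4 (-1.06) and the lipase gene PNPLA2 (-0.32) were lower.

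The 250 bases before the start of HMGCS1 are shown as an example from the cholesterol list. The sequence is from RefSeq GRCh38.p14, 5′ to 3′ on the gene's strand, with both CCAAT boxes, read on either strand, in capitals.
HMGCS1, chr5:43313413-43313662, minus strand: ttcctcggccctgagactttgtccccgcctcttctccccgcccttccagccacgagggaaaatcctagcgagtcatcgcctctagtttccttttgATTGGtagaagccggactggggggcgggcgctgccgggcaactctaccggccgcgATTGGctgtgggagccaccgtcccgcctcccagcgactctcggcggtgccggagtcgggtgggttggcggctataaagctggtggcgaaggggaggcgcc
The 5 letters CCAAT on either strand occurred in 12 of 14 promoters of cholesterol synthesis genes that matched by symbol, against 36.2% of the 9541 promoters of tested genes (windows of 250 bases before to 50 after the start). They were as frequent in lists that were mostly lower, 17 of 19 ER chaperone genes and 11 of 15 of ER-associated degradation, and in 27 of 36 mitosis genes. Of the promoters of genes past 1.5-fold, 53 of 102 higher and 34 of 114 lower held them. The strict sterol regulatory element was in 4 of 9541 promoters and in none of the cholesterol synthesis list. Such a match describes the letters in the window only.

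Misfolded protein in the endoplasmic reticulum (ER) activates the unfolded protein response through ATF6, IRE1 with XBP1, and PERK, which acts through translation of ATF4. ATF4 targets include amino acid synthesis genes and the factor DDIT3, also called CHOP. Most tested genes of each group were lower with G1. Of 20 ER chaperones and oxidation genes, 11 were lower and 1 higher. Of 16 genes of ER-associated degradation and the stress sensors, 11 were lower and 0 higher. HSPA5, the ER chaperone BiP (GRCh38 chromosome 9, 125234853 to 125241330), had 438, 461 and 424 CPM with G1 and 919.9, 949 and 880.2 CPM with G7, a difference of -1.05 ± 0.046 (SE; edgeR adjusted p = 5.67e-09). DNAJB9, a BiP cochaperone, had 9.08, 11.3 and 9.39 CPM with G1 and 25.8, 24.8 and 21.8 CPM with G7. ERO1B, an oxidase of disulfide formation, had 5.7, 5.54 and 5.8 CPM with G1 and 15.3, 14.1 and 15.7 CPM with G7. Its paralog ERO1A, also a hypoxia target, was the one member higher with G1, at 0.35. The list was split by size: HYOU1 (-0.55) and PDIA4 (-0.28) were lower by less, and the abundant folding genes CALR (-0.12), CANX (-0.01) and HSP90B1 (-0.07) were not called. Upper quartile scaling called 16 of the 20 lower in place of 11, among them CALR (-0.17) and HSP90B1 (-0.12).

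The ER stress response element is CCAAT, then any 9 bases, then CCACG, on either strand. It was found in 12 of 9541 promoters (0.126%), and 6 of these belonged to the 19 ER chaperone genes with a promoter entry. The windows around the element, in capitals, are printed because genes that hold it differed between the hairpins to very different degrees (RefSeq GRCh38.p14, 5′ to 3′ on the gene's strand; for HSPA5, all 250 bases before the start).
HSPA5, chr9:125241344-125241593, minus strand: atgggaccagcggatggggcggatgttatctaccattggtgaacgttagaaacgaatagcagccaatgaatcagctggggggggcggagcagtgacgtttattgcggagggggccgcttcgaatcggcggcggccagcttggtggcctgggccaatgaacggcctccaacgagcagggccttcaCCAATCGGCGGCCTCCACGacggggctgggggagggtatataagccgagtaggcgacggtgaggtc
ERO1B, chr1:236282171-236282208, minus strand: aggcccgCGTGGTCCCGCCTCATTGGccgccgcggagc
XBP1, chr22:28800591-28800633, minus strand: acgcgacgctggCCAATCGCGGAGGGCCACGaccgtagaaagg
CRELD2, chr22:49918542-49918584, plus strand: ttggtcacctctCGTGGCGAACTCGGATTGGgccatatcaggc
CALR, chr19:12938372-12938414, plus strand: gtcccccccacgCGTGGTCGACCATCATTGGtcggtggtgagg
CANX, chr5:179698766-179698808, plus strand: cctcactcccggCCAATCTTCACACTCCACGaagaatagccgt
HSP90B1, chr12:103930204-103930246, plus strand: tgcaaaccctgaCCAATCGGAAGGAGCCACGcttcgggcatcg
Of the 12 genes, 7 were called lower and 0 higher. ERO1B and HSPA5 had the 2 largest differences, followed by FICD (-0.86), which AMPylates BiP, XBP1 (-0.60) and CRELD2 (-0.49). CALR, CANX and HSP90B1 carry the same element and, as above, were not called. In XBP1 the element began 52 bases before the start and in HSPA5 66 bases, in CRELD2 80 bases, and in the other 4 printed between 151 and 243 bases. HSP90B1 held 2 such elements, and only the first is printed and placed here.

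Of 28 tested ATF4 targets, 23 were lower and 1 higher, with a median of -0.46. CHAC1, a glutathione-degrading enzyme, had 0.815, 0.983 and 0.819 CPM with G1 and 5.29, 5.68 and 4.27 CPM with G7. DDIT3 had 0.233, 0.362 and 0.567 CPM with G1 and 1.92, 1.96 and 2.34 CPM with G7. ASNS, asparagine synthetase, had 19.3, 18.1 and 16.1 CPM with G1 and 70.9, 70.3 and 61.9 CPM with G7. For all 3 genes the G7 libraries were at more than 3 times the G1 libraries, with differences of -2.51, -2.42 and -1.92 and edgeR adjusted p of 8.11e-07, 2.33e-05 and 2.83e-09. NUPR1 (-1.98) and ADM2 (-2.10) differed by as much, and PSAT1 (-0.89), an enzyme of serine synthesis, by less. ATF4 RNA itself had 367, 375 and 359.8 CPM with G1 and 481, 475 and 459.7 CPM with G7, a difference of -0.36. PSPH, the last enzyme of serine synthesis, was the member higher with G1, at 0.38. HERPUD1, a component of ER-associated degradation, had 46.7, 46.7 and 43.7 CPM with G1 and 168, 159.9 and 163 CPM with G7.

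The ATF4 element TGATGNAA, on either strand, was in 1.67% of promoters, in 5 of 23 promoters of the ATF4 list, in 6 of 114 of genes past 1.5-fold lower and in 0 of 102 of those past 1.5-fold higher. The 4 genes below are shown with it in capitals (RefSeq GRCh38.p14).
CHAC1, chr15:40953221-40953470, plus strand: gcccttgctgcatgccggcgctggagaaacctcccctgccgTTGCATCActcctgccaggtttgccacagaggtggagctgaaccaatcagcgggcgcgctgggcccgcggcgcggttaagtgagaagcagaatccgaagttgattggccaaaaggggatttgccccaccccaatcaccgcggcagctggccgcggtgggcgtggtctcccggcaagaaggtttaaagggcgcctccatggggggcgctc
ASNS, chr7:97872453-97872492, minus strand: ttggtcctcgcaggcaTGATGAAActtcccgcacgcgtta
ATF3, chr1:212565200-212565239, plus strand: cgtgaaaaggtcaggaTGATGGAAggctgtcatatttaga
HERPUD1, chr16:56931950-56931989, plus strand: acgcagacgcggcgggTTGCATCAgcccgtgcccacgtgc
The stress-induced factor ATF3 had 1.8, 1.14 and 1.76 CPM with G1 and 3.06, 3.06 and 3.12 CPM with G7.

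The 20 cytosolic tRNA synthetases, of which many are ATF4 targets, parted into 7 lower and 7 higher with a median of 0.00. Lower with G1 were the synthetases for tryptophan (WARS, -0.50), serine (SARS, -0.47), cysteine (CARS, -0.45), glycine (GARS, -0.41), alanine (AARS, -0.37), tyrosine (YARS, -0.29) and glutamine (QARS, -0.12). The call of QARS ended without G1 replicate 1 or 3 (-0.12 and -0.11). Higher were those for valine (VARS, 0.36), arginine (RARS, 0.31), histidine (HARS, 0.30), aspartate (DARS, 0.25) and lysine (KARS, 0.23), and both subunits of that for phenylalanine (FARSB, 0.33, and FARSA, 0.20). WARS had 21.5, 19.98 and 24.6 CPM with G1 and 30.7, 30.5 and 31.99 CPM with G7, and VARS had 133, 130.2 and 125 CPM with G1 and 106, 103 and 93.3 CPM with G7. Neither pair of groups overlapped.

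Protein folding and breakdown in the cytosol differed in the direction opposite to the ER. Of 23 cytosolic chaperones, 21 were higher and 0 lower, with a median of 0.44. HSP90AA1, the inducible HSP90, had 6348, 6510.4 and 6578 CPM with G1 and 3494, 3575 and 3668 CPM with G7. HSPA8, the constitutive HSP70, had 1663, 1638 and 1766 CPM with G1 and 864, 866 and 965 CPM with G7. Both differed by nearly as much as HSPA5 but with the other sign, 0.86 and 0.91. The heat-induced HSPA1A (0.24) differed by less, and subunits of the chaperonin TRiC such as CCT5 (0.59) and TCP1 (0.59) were higher. Of 28 proteasome subunits, 26 were higher and 0 lower, with a median of 0.43 and none past 1.5-fold. PSMD1, a base subunit of the regulatory particle, had 301, 307 and 303 CPM with G1 and 195, 192 and 199 CPM with G7. In the plot of list members the medians of the proteasome and the cytosolic chaperones lie to the right of 0 and those of the ER lists to the left.

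**Figure D2:**
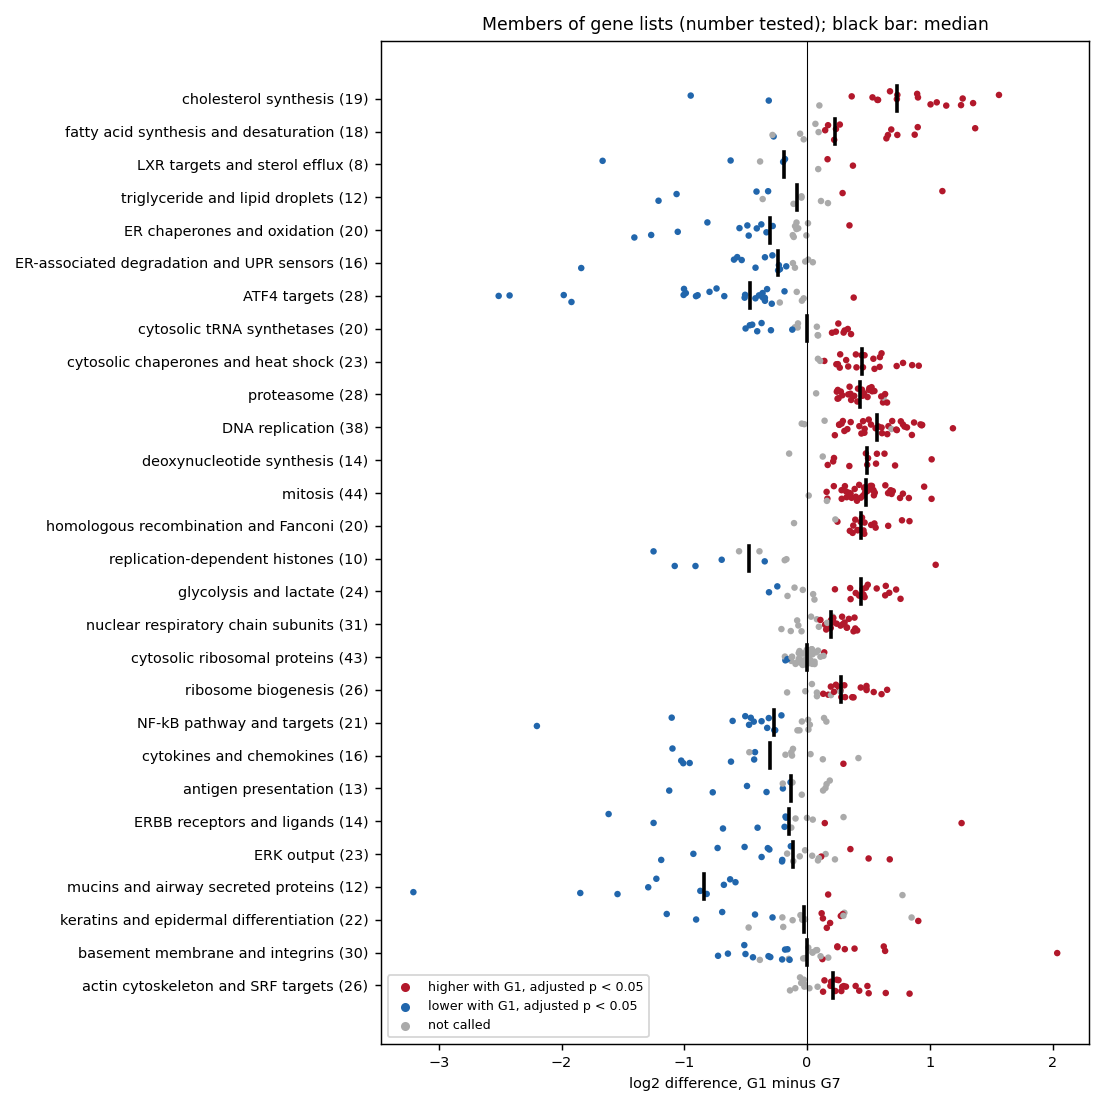
Log2 difference, G1 minus G7, of the tested members of 28 gene lists (number tested in brackets); points are genes, coloured by call at an edgeR adjusted p under 0.05, and the black bar is the list's median. Cholesterol synthesis has a median of 0.74 and mucins and airway secreted proteins one of -0.84, while the cytosolic ribosomal proteins lie around 0.

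E2F factors drive the genes of DNA replication at entry into S phase. The DREAM complex represses cell cycle genes in resting cells, and MYBL2 with MuvB activates the genes of mitosis, many of which carry the CHR element. Most genes of each list were higher with G1: 34 of 38 DNA replication genes (0 lower; median 0.57), 12 of 14 deoxynucleotide synthesis genes (0 lower), 42 of 44 mitosis genes (0 lower; median 0.48), 18 of 20 genes of homologous recombination (0 lower) and 16 of 20 of condensin and cohesin (0 lower). CLSPN, claspin of the replication checkpoint, had 34.2, 33.4 and 33.02 CPM with G1 and 13.9, 14.5 and 15.8 CPM with G7. RRM2, the regulated subunit of ribonucleotide reductase, had 241, 241 and 251 CPM with G1 and 119.6, 121 and 122 CPM with G7, and MYBL2 had 275, 264 and 284 CPM with G1 and 131, 134 and 141 CPM with G7. The SD of RRM2 was under 3% of the mean in both groups while the means differed by a factor of about 2. Differences were 1.19, 1.01 and 1.01, with edgeR adjusted p of 5.08e-08, 2.83e-09 and 5.02e-09. MCM6 of the helicase and PCNA of the sliding clamp differed by 0.87 and 0.73, and CDC20 (0.83) and PLK1 (0.54) of mitosis by as much or less. Of 12 tested E2F factors and pocket proteins, 7 were higher, including E2F7 (0.94), E2F1 (0.68) and E2F2 (0.53), and 3 were lower, E2F5 (-0.36), the dimer partner TFDP2 (-0.28) and the pocket protein gene RBL2 (-0.37). E2F5 was not called without G1 replicate 1 or 2. CCND1, cyclin D1, had 512, 499 and 509 CPM with G1 and 481, 481 and 461 CPM with G7 and was not called, although RLE scaling, all 9 libraries or no mitochondrially encoded genes in the fit called it at 0.10.

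The E2F site TTTCGCGC was in 0.964% of promoters and in 5 of 32 of the replication list, and the CHR element TTTGAA in 9.53% of promoters and in 24 of 36 of the mitosis list, each on either strand. They are in capitals here in 2 genes of each list (RefSeq GRCh38.p14). MCM6 and CDC20 each held 2 sites, of which only the first is shown.
MCM6, chr2:135876568-135876607, minus strand: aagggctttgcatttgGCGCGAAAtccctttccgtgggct
MCM7, chr7:100101398-100101422, minus strand: cacgtggggggcgacgTTTCGCGCc
CDC20, chr1:43358786-43358825, plus strand: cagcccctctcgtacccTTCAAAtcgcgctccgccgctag
PLK1, chr16:23678843-23678882, plus strand: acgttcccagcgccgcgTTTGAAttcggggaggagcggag
MCM6 and MCM7 had 0.87 and 0.61 as log2 differences.

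The replication-dependent histone genes that could be tested did not follow the S phase genes. Of 10 tested, 5 were lower and 1 higher, with a median of -0.47. Most RNAs of this class lack a poly-A tail, and polyadenylated RNA was sequenced, so the tested genes may not stand for the class. Another 9 of the 19 listed had too few counts. Of these, HIST1H1B had 6 and HIST1H2AE 10 counts in the 6 libraries together, and the others had 0. The cause was not tested. HIST2H2BE had 3.43, 3.36 and 2.96 CPM with G1 and 5.75, 5.81 and 4.41 CPM with G7, and HIST1H2AC (-1.08) and HIST1H2BN (-1.25) were also lower. The one higher, HIST1H1E (1.05), was no longer called without any 1 library other than G7 replicate 1. H2AFX, a histone variant gene outside that list, had 0.66.

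Glucose metabolism was higher with G1 in 17 of 24 genes and lower in 2, with a median of 0.44. LDHA, lactate dehydrogenase A, had 2830.5, 2842 and 3012 CPM with G1 and 1655, 1684 and 1784 CPM with G7. TPI1 (0.73), PGAM1 (0.67) and the lactate exporter SLC16A3 (0.64) were higher, and the hexokinase gene HK2 was lower, at -0.31. Without G7 replicate 3, or with upper quartile scaling, 4 genes were lower in place of 2. The hypoxia list had 11 of 18 higher and 3 lower. It did not move as one, since the carbonic anhydrase gene CA9 (1.24) and EGLN3 (0.73) were higher and VEGFA, the main angiogenic factor, was lower. VEGFA had 93.4, 88.4 and 95.1 CPM with G1 and 143, 137 and 152 CPM with G7. Only 1 of the 3 stayed lower without G1 replicate 2 or 3. Of 11 genes of the glucose sensor MondoA and the arrestin-domain family, 6 were higher and 0 lower. TXNIP had 318, 321 and 314 CPM with G1 and 165, 168 and 161 CPM with G7, and ARRDC3 (0.96) and ARRDC4 (0.99) differed by as much. Nuclear-encoded respiratory chain subunits were higher in 20 of 31 (0 lower), with a median of 0.20; without G7 replicate 3, 2 were lower. Of 15 mitochondrially encoded genes, 0 were higher and 1 lower, but without G7 replicate 3, the library with the highest share of such counts, 9 were higher, and without G1 replicate 1 or 2 none was lower. Of 43 cytosolic ribosomal proteins, 1 was higher and 2 lower, with a median of 0.00 and 0 to 5 lower when 1 library was left out (4 higher without G7 replicate 3, and 8 lower with upper quartile scaling). In ribosome biogenesis, 19 of 26 were higher and 0 lower (1 lower without G1 replicate 3 or G7 replicate 2).

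Among NF-kB genes, none of 21 was higher with G1 and 13 were lower, with a median of -0.27. LTB, lymphotoxin beta, had 0.757, 1.29 and 0.693 CPM with G1 and 4.7, 3.97 and 4.22 CPM with G7. TRAF1, a signal adaptor, had 0.931, 1.29 and 1.45 CPM with G1 and 2.46, 2.81 and 2.66 CPM with G7. ICAM1, an adhesion receptor for leukocytes, had 18.8, 19.8 and 24.1 CPM with G1 and 29.2, 28.5 and 37.1 CPM with G7. No library of G1 reached any of G7 for these genes, and G7 replicate 3 was the highest for ICAM1. The feedback inhibitors NFKBIA (-0.27) and TNFAIP3 (-0.47) and the subunits NFKB2 (-0.37) and RELB (-0.50) were lower by less. Of 16 cytokines and chemokines tested, from 29 listed, 7 were lower and 1 higher. TNFSF10, which encodes the death ligand TRAIL, had 19.8, 21.7 and 22.7 CPM with G1 and 43.6, 44.8 and 48.9 CPM with G7, and LIF was the one higher, at 0.30 (2 higher without G7 replicate 3). CXCL8, interleukin 8, had -0.42. In antigen presentation 6 of 13 were lower and 0 higher (1 higher without G7 replicate 1), among them HLA-B (-0.49). HLA-B had 37.1, 34.3 and 32.8 CPM with G1 and 54.8, 53.6 and 38.4 CPM with G7, with G7 replicate 3 close to the G1 libraries. Of 24 interferon and double-stranded RNA response genes tested, from 38 listed, 6 were lower and 3 higher.

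EGFR is the oncogene of these cells. It had 968, 911 and 977 CPM with G1 and 1053, 1064 and 1126 CPM with G7, a difference of -0.18 ± 0.045 (SE; edgeR adjusted p = 0.00537). ERBB2 (-0.40) and ERBB3 (-0.17) were also lower. Larger differences were among ligands and inhibitors. HBEGF, a ligand of EGFR, had 6.05, 6.31 and 5.8 CPM with G1 and 17.6, 18.2 and 19.97 CPM with G7, at -1.62 ± 0.09 (SE; edgeR adjusted p = 5.08e-08). LRIG1, a membrane protein that lowers ERBB receptors, had 2.1, 1.66 and 1.58 CPM with G1 and 5.06, 4.58 and 3.12 CPM with G7. NRG1, the ERBB3 ligand, went the other way with 1.05, 1.24 and 1.07 CPM with G1 and 0.365, 0.611 and 0.459 CPM with G7. The EGFR ligands AREG (-0.13) and EREG (-0.09) were not called. In all, 7 of 14 in the list were lower and 2 higher. MET, whose amplification can bypass EGFR inhibitors, differed by 0.11 and AXL by -0.22. AXL was not called, and the call of MET (edgeR adjusted p = 0.0368) ended without any 1 library other than G7 replicate 3 (0.10 to 0.12) and with upper quartile scaling (0.05). That call also ended with no filter on low counts, at least 1 CPM in each library, all 9 libraries in the fit, DESeq2 or equal totals.

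ERK output genes, which follow the activity of the pathway, were lower in 10 of 23 and higher in 4 (2 without G1 replicate 1). EGR1 had 18.5, 18.5 and 19.2 CPM with G1 and 34.1, 34.9 and 37.7 CPM with G7. DUSP6 (-0.20), SPRY2 (-0.51) and SPRED3 (-0.73), feedback inhibitors, were lower, and SPHK1 (0.67) and DUSP7 (0.50) were higher. Of p53 targets 10 of 22 were higher and 4 lower. The split ran between CDKN1A (0.50), AEN (0.56) and TIGAR (0.56) on the higher side and GDF15 and BTG2 on the lower. GDF15, also an ATF4 target, had 6.69, 6.37 and 7.37 CPM with G1 and 18.7, 16.4 and 18.6 CPM with G7. In the BCL2 and inhibitor of apoptosis families 3 of 20 were higher and 7 lower. BIRC5, survivin and also a mitosis gene, had 111, 117 and 109.8 CPM with G1 and 68.05, 68.02 and 63.5 CPM with G7, and the BH3-only genes HRK (-0.71) and BBC3 (-0.51) were lower. MYC differed by -0.16 and was not called in the main fit. It was called lower without G1 replicate 3 (-0.21) or G7 replicate 2 (-0.22). Upper quartile scaling (-0.21), no filter on low counts (-0.15), at least 1 CPM in each library (-0.18) or a replicate block (-0.16) also called it lower.

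Several of the largest differences fell outside the lists. Higher with G1 were ARNT2 (1.75), a partner of bHLH-PAS factors, FGFBP1 (1.66), a carrier of fibroblast growth factors, NPTX1 (1.45), a pentraxin, KMO (1.42) of the kynurenine pathway, PADI4 (1.39), which citrullinates histones, and NOG (1.38), the BMP antagonist noggin. Lower were PPP1R1B (-2.38), the phosphatase inhibitor DARPP-32, TRIM31 (-1.90), a ubiquitin ligase, and CYP26A1 (-1.72), which degrades retinoic acid. PPP1R1B had 0.873, 0.932 and 1.32 CPM with G1 and 5.61, 5.87 and 4.77 CPM with G7. ARNT2 had 14.4, 14.02 and 13.3 CPM with G1 and 3.83, 4.77 and 3.9 CPM with G7. Among genes of at least 300 CPM on average, ANXA1 (0.80), annexin A1, was higher and ABCC3 (-0.70), a drug and bile salt exporter, lower. ANXA1 had 898, 965 and 876 CPM with G1 and 529, 550.1 and 492 CPM with G7, and ABCC3 had 628, 594 and 647 CPM with G1 and 1015, 989 and 1035 CPM with G7.

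Genes of airway secretion had a median of -0.84, with 10 of 12 tested lower and 1 higher (0 without G7 replicate 1, and 2 without G1 replicate 2 or G7 replicate 3). Another 20 of its 32 genes did not have enough counts. BPIFA1, a secreted airway defence protein, had 0.757, 1.09 and 1.01 CPM with G1 and 8.98, 9.41 and 8.31 CPM with G7. MUC5B, a gel-forming mucin, had 125, 104 and 127 CPM with G1 and 335, 309 and 392 CPM with G7. MUC16, a membrane mucin, had 675, 573 and 699.6 CPM with G1 and 1413, 1397 and 1749 CPM with G7. G7 replicate 3 was the highest library for both mucins and G1 replicate 2 the lowest. The differences were -3.21, -1.54 and -1.23, with edgeR adjusted p of 1.86e-08, 5.08e-08 and 4.08e-07. BPIFB1 (-1.29), MUC4 (-0.87), WFDC2 (-0.82) and SPDEF (-0.63), a factor of goblet cells, were lower too, and AGR2, a mucin-folding disulfide isomerase, was the one higher, at 0.17. Upper quartile scaling (0.12) or leaving out G7 replicate 1 (0.14) ended the call of AGR2.

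Other epithelial lists were mixed. Of keratins and epidermal genes 7 of 22 were higher (4 with upper quartile scaling) and 5 lower. SFN, stratifin, had 102, 95.8 and 105 CPM with G1 and 53.8, 49.6 and 57.7 CPM with G7, whereas S100A8, a calprotectin subunit, had 117, 138 and 112 CPM with G1 and 297, 291 and 224 CPM with G7. The simple-epithelium keratins KRT19 (0.29) and KRT8 (0.27) were slightly higher, and KRT4 (-0.90) and LCN2 (-0.69) were lower. In basement membrane and integrins 8 of 30 were higher (5 without G1 replicate 1) and 11 lower, and the extremes were NID2 and the laminins. NID2, nidogen 2 of the basement membrane, had 6.46, 5.49 and 6.62 CPM with G1 and 1.6, 1.16 and 1.65 CPM with G7, the highest log2 difference of all genes tested, at 2.04. LAMA5, laminin alpha 5, had 453, 432 and 411 CPM with G1 and 726, 673 and 628 CPM with G7. Actin genes were higher in 17 of 26 (0 lower) and tubulins in 7 of 10 (1 lower). TUBB4B had 418, 397 and 427 CPM with G1 and 217, 215 and 224 CPM with G7, and TUBE1, the centriolar epsilon-tubulin, was lower, at -0.84.

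HP1 partners and other chromatin genes were examined because the target is a chromatin protein. Of 20 partners and H3K9 methylation genes, 10 were higher and 5 lower (3 without G1 replicate 2). CHAF1B and UHRF1, which act at replication forks, had 0.94 and 0.89 and DNMT1 (0.41) was higher, whereas the methyltransferase genes SETDB1 (-0.23) and SETDB2 (-0.39) were lower. The call of SETDB1 ended without G1 replicate 2 or 3 or G7 replicate 1 (-0.19 to -0.21). TRIM28, the KRAB corepressor that binds HP1, had 0.27. Among Polycomb genes 8 of 21 were higher, including EZH2 (0.56), and 6 lower, including CBX7 (-0.35). LMNB1, lamin B1, had 146, 147 and 141 CPM with G1 and 79.7, 84.5 and 75.9 CPM with G7, and SYNE3, a nesprin of the outer nuclear membrane, had 8.09, 8.59 and 8 CPM with G1 and 16.6, 16.8 and 14.7 CPM with G7. Of 22 KRAB zinc finger genes of chromosome 19, a gene cluster known to carry HP1 and H3K9 methylation, 6 were higher and 1 lower. Without G1 replicate 1, G7 replicate 1 or G7 replicate 2 the higher count was 2 or 3. Without G7 replicate 3 the lower count was 3, and upper quartile scaling gave 3 in each direction. Another 24 of the 46 listed were not tested.

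Long non-coding genes were lower with G1 far more often than higher. Of 966 tested, 38 were higher and 277 lower, with a median of -0.30, against 2985 higher and 2439 lower of 11597 protein-coding genes. In the lowest tertile of mean CPM, 26.5% of long non-coding genes were lower and 3.03% higher, against 22% and 8.59% of protein-coding genes in the same tertile. In the middle tertile the shares were 43.2% lower and 11.4% higher, against 22.1% and 24.1%. In the highest tertile 11 of 19 long non-coding genes were lower and 2 higher, against 19.3% and 39.7% of protein-coding genes. FAM30A (GRCh38 chromosome 14, 105917979 to 105932642) had 3.84, 3.67 and 3.84 CPM with G1 and 23.8, 25.7 and 21.6 CPM with G7, a difference of -2.64 ± 0.1 (SE; edgeR adjusted p = 2.83e-09). NEAT1, the RNA of nuclear paraspeckles, had 188, 199 and 186 CPM with G1 and 305, 312 and 313 CPM with G7, and H19 (-0.68) and SNHG1 (-0.34) were lower too. OLMALINC had 23.98, 22.5 and 25.6 CPM with G1 and 11.2, 13.4 and 14.2 CPM with G7, and LUCAT1 (0.87) and SNHG26 (1.12) were likewise higher. The counting strand is not given in the sources used here, so antisense genes such as CALML3-AS1 (-1.07) cannot be told apart from their partners.

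As a share of counts from nuclear genes, long non-coding RNA was 0.835%, 0.801% and 0.813% with G1 and 1.02%, 1.03% and 1.03% with G7. The groups did not overlap, and the exact two-sided permutation test gave p = 0.1, the smallest it allows for 3 against 3. Control libraries had 1.21%, 1.24% and 1.20%. Genes with at least 1 count numbered 18688 to 19466 with G7 and 18069 to 18711 with G1, ranges that overlapped. G7 replicates 1 and 3 had the most such genes, 19466 and 19432, and the largest totals of the 6 libraries, 21026926 and 22372353 counts. The part of the number of genes detected in the result was not tested. After thinning all 6 libraries to the smallest total, 32 long non-coding genes were higher and 238 lower.

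**Figure D3:**
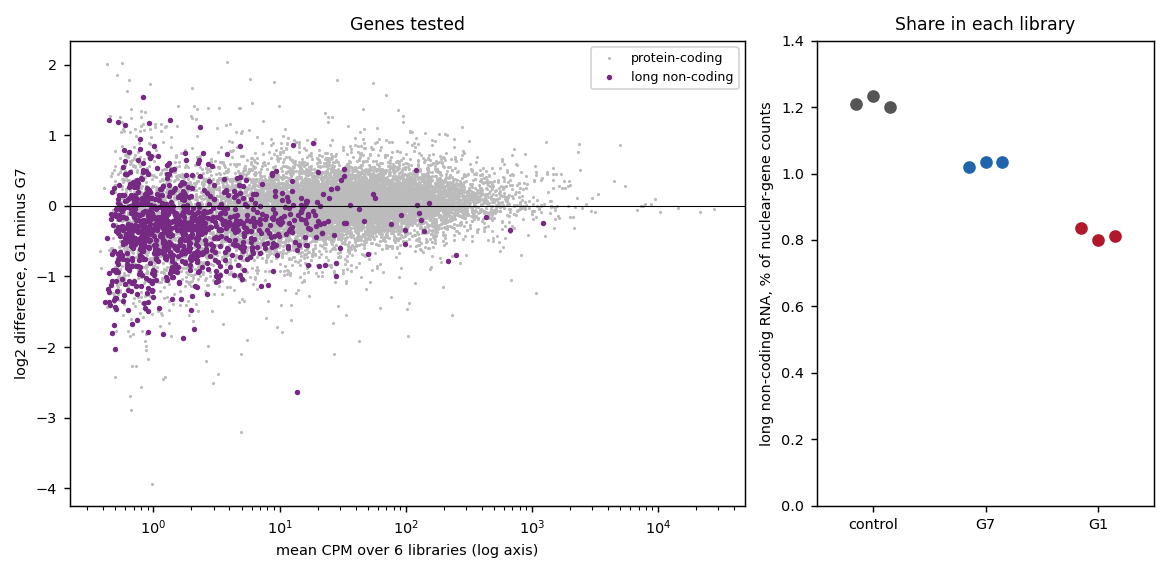
Left: log2 difference, G1 minus G7, against mean CPM over the 6 libraries (log axis) for protein-coding and long non-coding genes. Right: long non-coding RNA as a percentage of nuclear-gene counts in each library, from 1.20% to 1.24% in control, 1.02% to 1.03% with G7 and 0.801% to 0.835% with G1.

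By chromosome, 18.7% to 27.8% of tested nuclear genes were higher and 17.4% to 26.8% lower. In 1190 overlapping windows of 50 neighbouring tested genes, 5% of window medians lay under -0.13 and 5% above 0.09. The lowest window median, -0.33, was on chromosome 6 from 26383096 to 30075887 (GRCh38), between BTN2A2 and RNF39, with 23 genes lower and 1 higher. It covers butyrophilin, histone, zinc finger and HLA class I genes, and also long non-coding genes and pseudogenes, many at low CPM. Over all chromosomes, long non-coding genes had a median of -0.30 and genes in the lowest tertile of mean CPM one of -0.19. The part of such genes in the window median was not tested. BTN3A1, a butyrophilin, had 29.1, 27.4 and 30.1 CPM with G1 and 39.1, 36.6 and 38.5 CPM with G7, HCG11, a non-coding gene, had 8.9, 9.73 and 9.39 CPM with G1 and 14.2, 14.7 and 13.4 CPM with G7, and RNF39 had 10.9, 10.1 and 11.4 CPM with G1 and 16.5, 18.03 and 20.4 CPM with G7. HMGN4 was the gene higher, at 0.21, and was no longer called without G1 replicate 2 (0.18). Because the window was taken as the lowest, its count is a description with no test.

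The control libraries were set beside the hairpins to show where the untargeted level lay (TMM over all 9 libraries, so CPM differ slightly from those above). These orders share the G1 and G7 libraries with the comparison itself, and were counted only among genes called in it. CBX5 had 371 ± 8.13 CPM in control cells, 203 ± 1.44 CPM with G7 and 141 ± 0.586 CPM with G1 (SD, n = 3). Of 3033 genes higher with G1, 1327 had every G7 library between the control and G1 libraries. Another 73 had every control library between the hairpins, and 15 had every G1 library between control and G7. Of 2831 genes lower with G1 these numbers were 955, 114 and 24. In the remaining genes the libraries of some groups overlapped. HSPA5, with 1772 ± 44.4 CPM in control cells, 930.4 ± 35.1 CPM with G7 and 448 ± 19.1 CPM with G1, and LDHA, with 1239 ± 40.5 CPM in control cells, 1734 ± 68.99 CPM with G7 and 2939 ± 103 CPM with G1, had G7 in the middle. TXNIP had 43.1 ± 2.9 CPM in control cells, 167 ± 3.6 CPM with G7 and 323 ± 3.18 CPM with G1, with the groups far apart. FAM30A had 29.9 ± 1.17 CPM in control cells, 24.05 ± 2.08 CPM with G7 and 3.84 ± 0.0986 CPM with G1, with G7 much nearer to control than to G1.

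Genes with the control in the middle moved in opposite directions from control with the 2 hairpins. STC1, stanniocalcin, had 10.7, 10.96 and 9.08 CPM in the control libraries, 5.33, 4.96 and 5.97 CPM with G7 and 13.8, 14.3 and 15.6 CPM with G1. STARD4, a sterol carrier, had 4.09, 4.62 and 3.64 CPM in the control libraries, 2.69, 2.92 and 2.38 CPM with G7 and 9.45, 9.67 and 8.38 CPM with G1. PTGS1, cyclooxygenase 1, had 29.3, 26.5 and 29.1 CPM in the control libraries, 44.5, 42.9 and 46.4 CPM with G7 and 11.6, 10.8 and 8.89 CPM with G1. ABCG1 had 31.8, 30.3 and 30.7 CPM in the control libraries, 45.8, 41.8 and 36.5 CPM with G7 and 12.8, 13.9 and 12.3 CPM with G1. FGF19 had 11.98, 11.9 and 12.5 CPM in the control libraries, 15.2, 17.3 and 17.01 CPM with G7 and 4.31, 4.94 and 5.05 CPM with G1. In each of these 5 genes the control libraries overlapped neither hairpin group. HMGCS1 had 51.9 ± 1.69 CPM in control cells, 49.4 ± 1.33 CPM with G7 and 126 ± 2.71 CPM with G1. Its mean with G7 was slightly under control, but the control and G7 libraries overlapped, unlike in the 5 genes above.

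**Figure D4:**
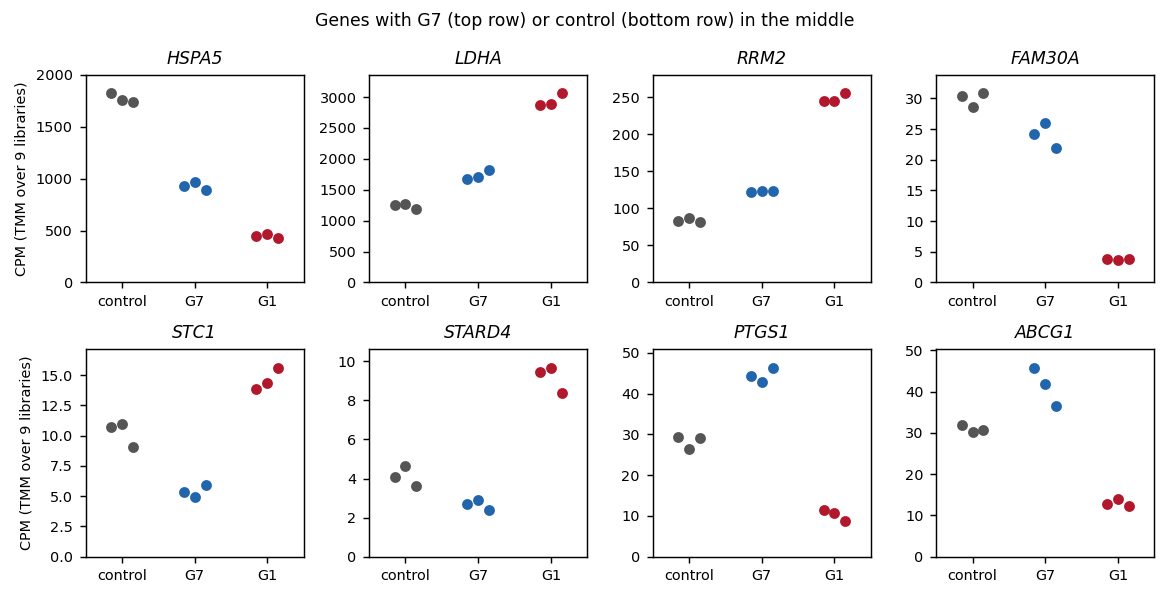
CPM (TMM over 9 libraries, linear axes from 0) of 8 genes in each control, G7 and G1 library; points are libraries. In the top row the G7 libraries lie between control and G1, and in the bottom row the control libraries lie between the hairpins.

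Some genes could not be measured here. Of listed genes that could not be tested, 124 had 0 counts in all 6 libraries and 129 had some counts. Genes listed at 0 include CYP51A1, PSMA1 and SMC4, which dividing cells need, so a 0 in such a gene is uncertain. Of the 124, 108 (87.1%) overlapped another annotated gene, against 65 (50.4%) of the 129. Among all protein-coding genes, 22.3% of those that overlapped no other gene had 0 counts. The share was 19.4% with a gene on the opposite strand only and 28.6% with one on the same strand. The cause of the zeros was not tested.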

How the data were processed

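The submitters' deposited table holds raw read counts per gene for 9 libraries of HCC827 cells, 3 per hairpin. The submitters' processing notes name TopHat2 2.1.0, HTSeq 0.6.0 and hg38 (GRCh38). Neither annotation release nor counting strand is stated in the labels. Of 60675 rows, 57055 matched GENCODE 29 by identifier, which gave symbols and coordinates. Totals of the G1 and G7 libraries were 15781878 to 22372353 counts. The floor for a gene at 0, 3 counts, is 0.134 to 0.19 CPM in these libraries. Control libraries had totals of 12701561, 14414700 and 16030488 counts, with floors of 0.236, 0.208 and 0.187 CPM. The floor covers counting error only.

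The 6 hairpin libraries were fitted with edgeR 4.0.16 in R 4.3.3 (filterByExpr, TMM, glmQLFit and glmQLFTest, two-sided, Benjamini-Hochberg over all genes tested). Differences past 1.5-fold came from glmTreat on the same fit. The script was tested on simulated data. Libraries of 1 group differed by 1.51 to 24.7 in chi-square per degree of freedom, with the 2 largest values, 24.7 and 19.5, for G7 replicate 3. All libraries were kept in the main fit, and each was left out in turn among the alternatives. Control libraries entered a test only in the alternative with all 9 libraries.

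Genes with values in the text are a fixed set of signature genes, those with the largest differences each way among protein-coding, long non-coding and abundant genes (at least 2 CPM, or 300 CPM, on average and no overlap between groups), list members with the smallest p-values, and members that went against their list. Genes beyond this rule, such as those shown for their promoters, were chosen after their values were seen. The lists and members were chosen with earlier results of these data known, and no list was tested as a set. VIM, among the signature genes, had too few counts, and some others are not reported here. Promoters were taken from RefSeq GRCh38.p14 for 9541 of the 13013 genes tested, matched by symbol. Alternatives were other scalings (RLE, upper quartile), other filters, all 9 libraries, DESeq2 1.42.0, a replicate block, each library left out, no mitochondrially encoded genes and equal totals.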

Additional observations from a re-analysis of the deposited data

How the results depend on the processing

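Genes called numbered 5864 and ranged from 4730 under DESeq2 to 6134 without a filter on low counts among the alternatives that kept all 6 libraries and no replicate block. Leaving out 1 library gave 4775 to 6165 genes called (2562 to 3241 higher and 2213 to 2924 lower), and 91 to 130 higher and 115 to 181 lower past 1.5-fold. It gave 29 to 44 long non-coding genes higher and 212 to 241 lower, and DESeq2 gave 24 and 180 in place of 38 and 277; the cause was not tested. Each alternative shared between 79.6% and 99.9% of the 5864 calls. Of 226 genes named in the text, 208 kept their direction and call under every alternative in which they had a value. Some had none under an alternative, such as DDIT3 with at least 1 CPM in each library. The exceptions whose call ended or appeared without 1 library are given beside their values. CANX, not called at any setting, changed sign to 0.0074 without a filter, and ranged from -0.018 to 0.0080 when 1 library was left out (0.0051 without G1 replicate 1, 0.0036 without G1 replicate 2 and 0.0080 without G7 replicate 3). The median of the mesenchymal genes went from -0.07 to 0.0187 with at least 1 CPM in each library. Deviations of same-numbered libraries from their group means had r = 0.0275, 0.135 and 0.218 over genes. Differently numbered libraries had -0.198 to 0.0945, and G7 replicate 1 was closest to G1 replicate 2, at 0.0945. On the second principal component (12.7% of variance) G1 replicate 3 (-13.31) and G7 replicate 3 (-13.08) lay apart from the others (1.814 to 11.4). The main fit had no replicate term, and whether the numbers mark pairs was not tested. With a replicate block 7012 genes were called, 3620 higher and 3392 lower, with 376 past 1.5-fold. The higher share of calls fell from 51.7% to 40.2% with upper quartile scaling. With upper quartile scaling of the 9 libraries, every G7 library lay between control and G1 in 1082 of 3033 genes higher and 1113 of 2831 lower. Medians per chromosome under that scaling were not run. Depth limits genes near the floor, such as DDIT3, at 0.233 CPM in G1 replicate 1, where 3 counts are 0.172 CPM.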

Other observations

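Nuclear transport and splicing genes outside the groups described were mostly higher with G1. Of 32 nucleoporins and karyopherins, 25 were higher and 0 lower, with a median log2 difference of 0.28 against -0.01 for all genes tested. KPNA2, an importin alpha, had 262, 265 and 262 CPM with G1 and 157, 159 and 154 CPM with G7, and CSE1L (0.53), its export factor, was higher too. Of 27 SR and hnRNP splicing factors, 20 were higher and 0 lower (1 lower without G1 replicate 3), with a median of 0.28. HNRNPAB had 149, 154 and 151 CPM with G1 and 79.5, 80.4 and 85.5 CPM with G7, and HNRNPM (0.78) and HNRNPL (0.57) were also higher. Every G1 library was above every G7 library for KPNA2 and HNRNPAB. Of 13 genes of the small RNA machinery, which a hairpin uses, 5 were higher, including DICER1 (0.31) and AGO2 (0.26), and 1 lower, AGO4 (-0.19), whose call ended without G1 replicate 2 or 3 or G7 replicate 1 or 2.

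Of 22 NRF2 targets, the antioxidant group, 11 were higher and 5 lower (2 without G1 replicate 1, and 3 without G1 replicate 2 or 3 or G7 replicate 2). GCLM, a subunit that limits glutathione synthesis, had 432, 445 and 438 CPM with G1 and 274, 298 and 279.9 CPM with G7, and GSR (0.42) and OSGIN1 (0.90) were higher, while ABCC3 was lower. In the lysosome and autophagy list 4 of 26 were higher (1 without G1 replicate 1, and 2 without G1 replicate 2 or G7 replicate 2) and 8 lower. The cathepsin genes CTSH (-0.56) and CTSB (-0.32) were lower, and ATG5 (0.70), an autophagy conjugation factor, was higher. Of 23 epithelial junction genes 11 were higher and 3 lower, and DSC2, desmocollin 2, had 46.97, 46.4 and 45.6 CPM with G1 and 24.9, 28.2 and 24.8 CPM with G7. Of 9 tested mesenchymal genes 1 was higher, SNAI1 (0.61), and 3 lower, among them SPARC (-1.53) and S100A4 (-0.73). Of 21 YAP and TEAD genes, 8 were higher by small amounts, such as AMOTL1 (0.33), and 1 lower, AMOTL2 (-0.48). Without G1 replicate 1, 5 were higher, and without G1 replicate 3 or G7 replicate 1 or 3, 2 were lower.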
